A study of Mus musculus with 10 samples.

Results

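The mitochondrial ribosomal proteins described here are the products of the protein-coding mouse genes whose symbols begin with Mrpl or Mrps followed by a number. Among the gene identifiers with counts, 78 are such genes by the annotation used. All 78 had a mean above 1 CPM (counts per 1000000 library counts) over the 10 libraries, so that none of them was lost to the filter. They were 78 of the 13739 genes tested and of the 41249 gene identifiers listed. By their place in the ribosome, 51 encode proteins of the large subunit and 26 proteins of the small subunit. The remaining gene, Mrps36, carries a ribosomal name, but its product belongs to the 2-oxoglutarate dehydrogenase complex. Mrps30 and Mrps18a, named for the small subunit, encode proteins of the large subunit.

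RNA was sequenced from whole interscapular brown adipose tissue (iBAT) of 5 Axl KO and 5 wild-type (WT) mice, with 1 library per mouse. The Axl KO mice lack the receptor tyrosine kinase AXL in the whole body and throughout life, through a knockout-first cassette with LacZ and Neo that was brought in by targeted embryonic stem cells. Both genotypes were male littermates of heterozygous crosses on a C57Bl6 background, lived at room temperature, and, per the labels, received a high-fat diet (HFD) for 24 weeks from an age of 6 to 8 weeks, so that a lean control group is not part of this comparison. The study's text gives another duration and starting age. The comparison asks which transcripts of brown fat differ when AXL is absent under HFD.

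Mitochondria keep their own ribosomes, which translate the few messages of the mitochondrial genome into core subunits of the respiratory chain and of ATP synthase. The ribosomal RNAs of these particles come from mitochondrial DNA, whereas every ribosomal protein is encoded in the nucleus, made in the cytosol and imported. Many of the proteins have counterparts in bacterial ribosomes, and the others are found only in mitochondrial ribosomes. Brown adipocytes are packed with mitochondria whose respiration generates heat through UCP1, and their supply of respiratory complexes depends on this translation system.

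Axl itself was measured at 0.437 to 2.01 normalized CPM in Axl KO mice and at 38.2 to 52.3 in WT mice, a log2 fold change of -4.77 (SE 0.200, edgeR adjusted p = 1.1e-07), so that each library carried the Axl level of its label. Total counts ranged from 5431014 to 8214841 in Axl KO and from 5952427 to 9580215 in WT mice. Brown adipocyte markers were abundant in all mice, with Ucp1 between 2990 and 7633 CPM. Transcripts of skeletal muscle, which lies next to this depot, varied widely. Their summed level over 12 markers was 67.7 and 17.3 CPM in Axl KO replicates 1 and 2, and between 1529 and 9818 in the other mice. The tissue is a mixture of cells, and fewer cells of a type cannot be told apart from less RNA per cell.

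The mitochondrial ribosomal protein transcripts were, on average, slightly more abundant in Axl KO than in WT iBAT, by an amount that no gene of the family carried past the multiple-test threshold. The log2 fold change was above 0 for 71 of 78 genes (91.0%), compared with 49.8% of all tested genes. Its median over the family was 0.113, equivalent to 8.15% more transcript, whereas the median over all tested genes was -0.001. In the edgeR quasi-likelihood test, 0 of 78 genes reached an adjusted p under 0.05, and the lowest adjusted p in the family was 0.571. In the whole table, 1 of 13739 genes (0.00728%), Axl, passed. DESeq2 called 0 of the 78 and 9 of the 13739. Without adjustment, 15 of 78 genes (19.2%) were higher in Axl KO at p under 0.05, where the same share over all tested genes was 4.54%. The count of genes lower in Axl KO at the same limit was 0 of 78, beside 3.86% of all tested genes.

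The size of these differences was small throughout the family. The log2 fold changes lay between -0.19 for Mrpl23 and 0.32 for Mrpl46, and 22 genes differed by less than 5% between the genotypes. An excess of more than 10% in Axl KO was measured for 26 genes and of more than 20% for 1 gene, Mrpl46. A deficit of more than 10% was measured for 1 gene, Mrpl23. The shares of all tested genes within or beyond these limits were not taken, so these counts describe sizes and set no trait of the family. Standard errors of the log2 fold change had a median of 0.0791.

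**Figure D1:**
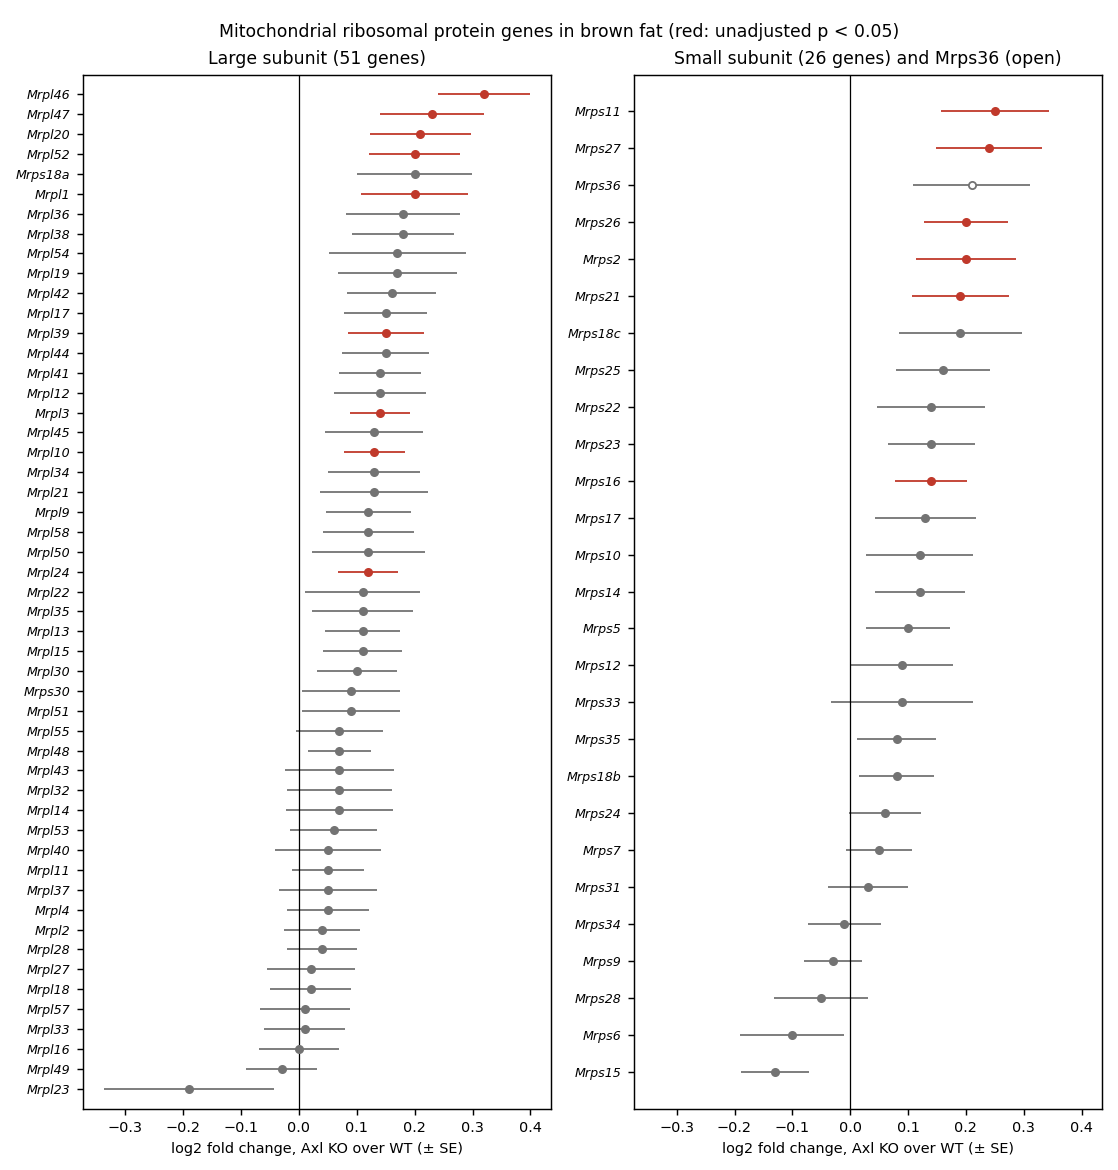
Log2 fold change of each gene, Axl KO over WT (x axis), with its standard error as a horizontal bar, for the 51 large subunit genes (left) and for the 26 small subunit genes with Mrps36 as an open circle (right). Red points mark the 15 genes with an unadjusted edgeR p under 0.05, and 71 of the 78 points lie right of 0.

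The count of 15 genes depended on individual mice. It was 6 without Axl KO replicate 5, 7 without Axl KO replicate 1, 7 without WT replicate 5 and 8 without WT replicate 3, and it was 31 without Axl KO replicate 3. Over the same refits the share of all tested genes higher in Axl KO at this limit was 2.81%, 3.04%, 3.49%, 3.88% and 7.71%. Without both Axl KO mice that were low in muscle transcripts, a selection made after those levels were seen, the count was 11, beside 3.13% of all tested genes, and the family's median was 0.11. The adjusted count stayed at 0 in every refit.

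Mrpl46, which encodes a mitochondria-specific protein of the large subunit, showed the largest fold change and the lowest unadjusted p of the family. In Axl KO replicates 1 to 5 its level was 38.4, 31.6, 32.3, 37.1 and 40.5 normalized CPM. In WT replicates 1 to 5 it was 27.2, 29.1, 28.6, 31.5 and 27.8 CPM. The lowest Axl KO mouse lay just above the highest WT mouse, so the groups did not overlap. The means were 36.0 ± 3.89 and 28.8 ± 1.65 CPM (SD, n = 5 each), with a log2 fold change of 0.32 (SE 0.079, adjusted p = 0.571).

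Mrps11 (chr7:78783119-78792989, plus strand, GRCm38) is the head-to-head neighbour of Mrpl46 (chr7:78775236-78783531, minus strand), and encodes a small subunit protein that is conserved from bacteria. Its level was 24.2, 23.1, 22.6, 24.0 and 28 CPM in the Axl KO mice, and 21.4, 19.9, 18.3, 24.6 and 18.7 CPM in the WT mice. WT replicate 4 exceeded 4 of the 5 Axl KO mice. The log2 fold change was 0.25 (SE 0.093, adjusted p = 0.571). The annotated exons of the neighbours overlap by 173 bases on opposite strands, 12.2% of the exonic length of Mrpl46 and 8.0% of that of Mrps11. Because the strand setting of the counting is not given, it is unknown how reads of this stretch were assigned. The values of this pair may therefore not be independent of each other.

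The start sites of the pair in RefSeq, 78783089 for Mrpl46 and 78783131 for Mrps11, are 42 bases apart. The stretch between them, with 30 bases of each first exon, is shown because it is shared by the genes with the largest fold change in each subunit. It is given on the plus strand of GRCm38.p6, at chr7:78783060-78783160, and holds none of the 5 motifs searched for. The 300-base promoter windows described below reach beyond this stretch. In them Mrps11 has the YY1 core and Mrpl46 the TATA box.
Mrpl46 and Mrps11: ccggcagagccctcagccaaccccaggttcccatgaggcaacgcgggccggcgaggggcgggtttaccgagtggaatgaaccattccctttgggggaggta

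Mrpl3 encodes a large subunit protein with a bacterial homologue that sits near the peptidyl transferase centre. Its level was 92.4, 95.3, 89.1, 95 and 98.4 CPM in Axl KO mice and 87.4, 85.2, 84.4, 88.9 and 79.5 CPM in WT mice. The groups did not overlap, although Axl KO replicate 3 lay barely above WT replicate 4. The log2 fold change was 0.14 (SE 0.052, adjusted p = 0.571).

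Mrpl10 encodes the large subunit protein that anchors the flexible stalk, to which translation factors bind. Its level was 116.5, 113.0, 113.9, 123.1 and 127.8 CPM in Axl KO mice and 108.7, 108.2, 103.4, 111.1 and 112.8 CPM in WT mice. The highest WT mouse reached almost the lowest Axl KO mouse, and the groups did not overlap. The log2 fold change was 0.13 (SE 0.053, adjusted p = 0.571).

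Mrpl46, Mrpl3 and Mrpl10 were the 3 genes of the family, of 78, in which every Axl KO mouse exceeded every WT mouse. Of all tested genes, 101 (0.735%) showed this pattern. For each of the 3 the two-sided exact permutation test of the CPM values gave p = 0.00794, the smallest that 252 regroupings can give. Groups that do not overlap always give this p, so it adds nothing to the non-overlap. After adjustment over all 13739 genes the permutation p became 0.580. In 21 of 78 genes all 5 Axl KO mice lay above the WT median, as they did in 8.73% of all tested genes.

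The 250 bases before the RefSeq start sites of Mrpl3 and Mrpl10, whose genes did not overlap between genotypes, are shown 5′ to 3′ on the plus strand of GRCm38.p6, at chr9:105053018-105053267 and chr11:97041332-97041581. Capitals mark a match to ACTTCCGG on the reverse strand in Mrpl3, the core bound by ETS factors such as GABPA, and a match to GCGCATGCG on the reverse strand in Mrpl10, the core bound by NRF1. NRF1 and GABPA are known regulators of nuclear genes for mitochondrial proteins, and a match of letters does not show binding.
Mrpl3: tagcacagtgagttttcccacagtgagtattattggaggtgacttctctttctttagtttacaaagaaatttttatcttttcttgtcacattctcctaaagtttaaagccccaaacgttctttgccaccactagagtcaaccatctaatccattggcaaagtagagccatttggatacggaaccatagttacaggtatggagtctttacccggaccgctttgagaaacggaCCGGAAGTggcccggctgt
Mrpl10: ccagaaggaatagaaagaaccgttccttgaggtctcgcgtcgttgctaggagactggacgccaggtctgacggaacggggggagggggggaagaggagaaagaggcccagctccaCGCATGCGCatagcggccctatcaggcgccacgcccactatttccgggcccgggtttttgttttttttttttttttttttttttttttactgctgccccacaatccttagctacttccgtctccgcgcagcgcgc

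Promoter windows of 300 bases, from 250 before to 50 after the start, were found in RefSeq's GRCm38.p6 for 69 of the 78 genes, in 75 windows. The NRF1 core GCGCATGCG was present on either strand in 7 of 75 windows (9.33%), compared with 1.75% of all 32851 windows and 3.59% of the windows of tested genes. The ETS core ACTTCCGG was present in 12 of 75 (16%), compared with 3.89% of all windows and 7.95% of those of tested genes. The YY1 core AAGATGGC was present in 12 of 75 (16%), compared with 2.75% and 4.36%. The TATA box TATAAA was present in 5 of 75 (6.67%), compared with 13.6% and 7.48%, and the CRE motif TGACGTCA in 2 of 75 (2.67%), compared with 1.79% and 2.97%. Windows of nuclear genes for oxidative phosphorylation held the NRF1, ETS and YY1 cores in 11.8%, 7.35% and 13.2%, and windows of cytosolic ribosomal proteins in 4.11%, 15.1% and 11%. In all, 29 of the 75 windows held at least 1 of the NRF1, ETS and YY1 cores, a combined share that was not taken for the other windows. None of these motifs contains another.

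The other 8 of the 12 genes with the lowest unadjusted p were higher on average in Axl KO mice with overlapping groups. Among small subunit genes, Mrps26, which encodes a mitochondria-specific protein, was measured at 24.5 to 29.9 CPM in Axl KO and 21.6 to 24.8 CPM in WT mice (log2 fold change 0.20, SE 0.073). Mrps27, whose product is a pentatricopeptide repeat protein, ranged from 47.0 to 68.9 CPM in Axl KO mice and from 48.3 to 54.2 CPM in WT mice (0.24, SE 0.092). In this gene Axl KO replicate 3 was the lowest of all 10 mice and the other 4 Axl KO mice were the highest. Mrps16, a bacterial-type protein of the small subunit, ranged from 53.4 to 63.4 against 51.5 to 56.8 CPM (0.14, SE 0.062). Mrps2 ranged from 58.8 to 84.9 against 59.3 to 67.7 CPM (0.20, SE 0.086), and again Axl KO replicate 3 was the lowest of the 10 mice.

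Among large subunit genes, Mrpl47 ranged from 42.4 to 62.9 CPM in Axl KO and from 40.1 to 45.3 CPM in WT mice (log2 fold change 0.23, SE 0.090). Mrpl20, a bacterial-type protein that acts early in building the subunit in bacteria, ranged from 71.4 to 96.7 against 61.9 to 77 CPM (0.21, SE 0.087). Mrpl39 ranged from 85.8 to 102.0 against 80.1 to 94.4 CPM (0.15, SE 0.066). Mrpl52, a mitochondria-specific protein and the family's second lowest by CPM, ranged from 13.9 to 15.8 against 12.1 to 13.9 CPM (0.20, SE 0.079). Axl KO replicate 5 was the highest mouse for Mrps26, Mrps27, Mrps16, Mrps2, Mrpl47 and Mrpl20, and WT replicate 4 exceeded the lowest Axl KO mouse for Mrpl20 and Mrpl39. Adjusted p-values of these 8 genes were 0.571 to 0.579. Mrpl24, Mrps21 and Mrpl1, named after their values were seen, complete the 15, with log2 fold changes of 0.12, 0.19 and 0.20.

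**Figure D2:**
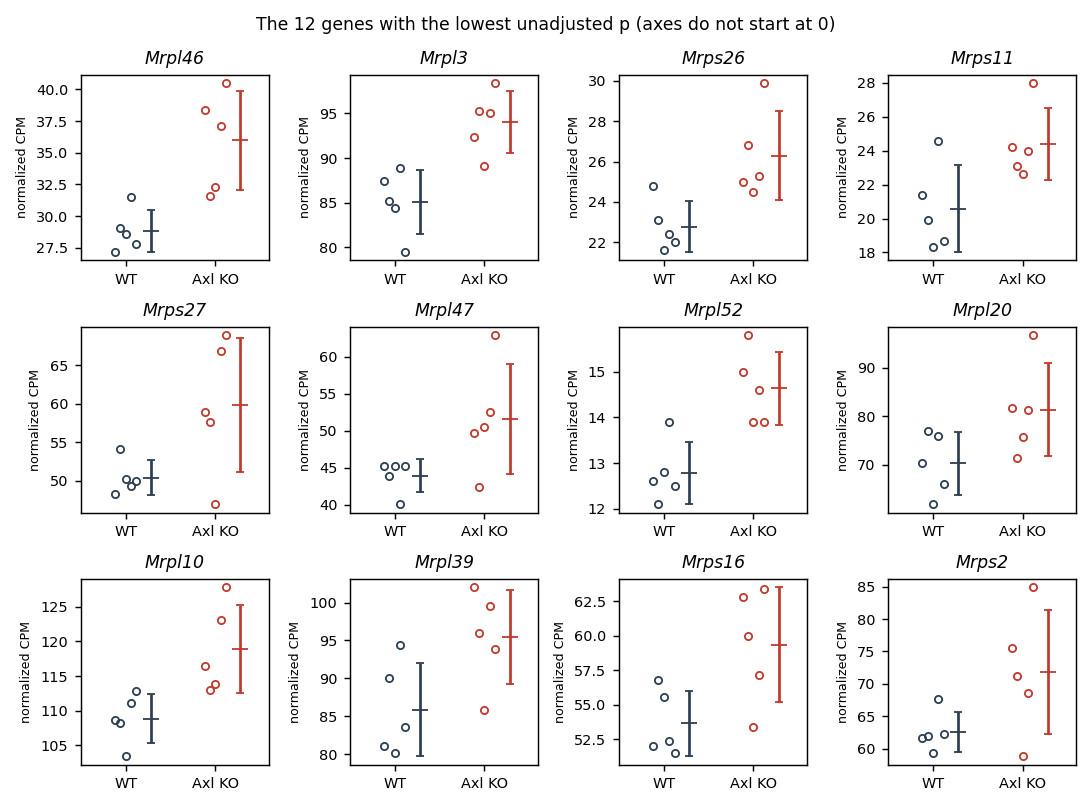
Normalized CPM (y axes, which do not start at 0) of the 12 genes with the lowest unadjusted p, in order of that p, with a circle per mouse and the mean ± SD of 5 mice beside it. In Mrpl46, Mrpl3 and Mrpl10 all Axl KO circles lie above all WT circles, and in the other 9 panels the groups overlap.

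The 7 genes with a log2 fold change below 0, named after their values were seen, were Mrpl23, Mrpl49, Mrps6, Mrps9, Mrps15, Mrps28 and Mrps34. They include 5 of the 26 small subunit genes and 2 of the 51 large subunit genes, and 0 of them had an unadjusted p under 0.05. Mrpl23, whose bacterial counterpart lines the exit of the nascent chain tunnel, was 6.63, 5.56, 5.36, 6.11 and 5.27 CPM in Axl KO mice and 6.83, 7.41, 7.86, 5.50 and 5.29 CPM in WT mice. The 3 highest values were WT mice and the other 2 WT mice lay among the Axl KO mice (log2 fold change -0.19, SE 0.147, adjusted p = 0.735). It rested on 28 to 70 counts per mouse, the fewest in the family. Mrps15 ranged from 50.9 to 55.0 CPM in Axl KO and from 52.8 to 63.1 CPM in WT mice (-0.13, SE 0.059, adjusted p = 0.599).

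Both subunits showed a similar shift. In the large subunit 49 of 51 genes were above 0 with a median log2 fold change of 0.111, and 9 had an unadjusted p under 0.05. In the small subunit 21 of 26 were above 0 with a median of 0.105, and 6 had an unadjusted p under 0.05. The summed CPM of the small subunit was 0.396 ± 0.00536 times that of the large subunit in Axl KO and 0.402 ± 0.00602 times in WT mice (SD, n = 5 each), and the groups overlapped, at 0.391 to 0.402 and 0.394 to 0.408. By origin, 41 of 46 genes with bacterial homologues and 27 of 29 mitochondria-specific genes were above 0, with medians of 0.110 and 0.125.

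Several genes are singled out for their place rather than their change. Mrpl12, which forms the stalk and also has a described role with the mitochondrial RNA polymerase, was measured at 136 ± 14.4 CPM in Axl KO and 123 ± 9.13 CPM in WT mice (log2 fold change 0.14, SE 0.079). Of the paralogs related to the bacterial S18 protein, Mrps18a had a log2 fold change of 0.20 (SE 0.099), Mrps18b of 0.08 (SE 0.064) and Mrps18c of 0.19 (SE 0.106). Mrps30 had 0.09 (SE 0.085) and Mrps36 0.21 (SE 0.101). Mrps12, a protein of the decoding centre, is the only gene of the family that starts within 5 Mb of Axl, 2.98 Mb away on chromosome 7. Its level was 32.2 ± 3.86 CPM in Axl KO and 30.2 ± 2.46 CPM in WT mice (0.09, SE 0.088, adjusted p = 0.788).

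Over the whole family the Axl KO mice were more spread out than the WT mice. The summed level of the 78 genes was 4503, 4189, 3937, 4390 and 4694 CPM in Axl KO replicates 1 to 5, and 4049, 4105, 3920, 4160 and 3906 CPM in WT replicates 1 to 5. Axl KO replicate 3 lay inside the WT range, and the other 4 Axl KO mice lay above every WT mouse. The means were 4343 ± 291 and 4028 ± 112 CPM (SD, n = 5 each). As a share of all counts, without TMM factors, the family took 0.411 to 0.459% in Axl KO and 0.399 to 0.407% in WT mice, and on this scale the groups did not overlap. The TMM factor, which scales each library's total, was 1.044 in Axl KO replicate 3, the highest of the 10.

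The highest value of the 10 mice was found in Axl KO replicate 5 for 45 of the 78 genes and in Axl KO replicate 1 for 15, compared with 17.8% and 11.4% of all tested genes. The lowest value was found in WT replicate 5 for 20 genes, in WT replicate 3 for 19 and in Axl KO replicate 3 for 15, compared with 8.92%, 12.4% and 9.80% of all tested genes. Compared with the WT median of each gene, 69 of the 78 transcripts had a higher level in Axl KO replicate 5, 68 in replicate 1, 64 in replicate 4, 51 in replicate 2 and 30 in replicate 3. In each of these mice between 48.5 and 50.6% of all tested genes were higher than their WT median.

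The mean of the brown adipocyte markers varied along with the family across the mice, although single markers differed widely. The mean centred log2 level of 11 brown adipocyte markers was highest in Axl KO replicate 5 (0.436) and Axl KO replicate 1 (0.218) and lowest in WT replicate 3 (-0.384) and WT replicate 5 (-0.210), and the family's own mean was 0.164, 0.096, -0.083 and -0.100 in these mice. Of the brown adipocyte markers, 10 of 11 had a log2 fold change above 0 (median 0.186), with 0 past the adjusted threshold. Ucp1 was 5560 ± 1200 against 4120 ± 863 CPM (log2 fold change 0.43, SE 0.160, adjusted p = 0.571), and Dio2, the deiodinase that activates thyroid hormone, 99.6 ± 29 against 53.8 ± 15.5 CPM (0.89, SE 0.208, adjusted p = 0.571). Elovl3 spread most, from 5.67 CPM in WT replicate 3 to 163.9 CPM in Axl KO replicate 5 (1.67, SE 0.492). The rest, named after their values were seen, were Cidea at 0.01, Ppargc1a at 0.02, Prdm16 at 0.04 and Ebf2 at -0.09. Cox7a1 was at 0.14, Zic1 at 0.19, Cox8b at 0.24 and Lhx8 at 0.27. Axl KO replicate 5 also had the smallest library and Axl KO replicate 3 the largest of its group. From the smallest to the largest library, the summed family level was 4694, 4503, 4189, 4390 and 3937 CPM in Axl KO mice. In the same order it was 4160, 4049, 3906, 3920 and 4105 CPM in WT mice, whose libraries held 5952427 to 9580215 counts. Libraries held 6770000 ± 1000000 counts in Axl KO and 7820000 ± 1330000 in WT mice (mean ± SD). The muscle markers had 0 of 12 genes higher in Axl KO, with a median log2 fold change of -1.033, and fibroblast markers 0 of 5, with a median of -0.268. The part of these measures in the family's difference was not tested, apart from the fit with the muscle list as a covariate, in which the family's median was 0.13.

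**Figure D3:**
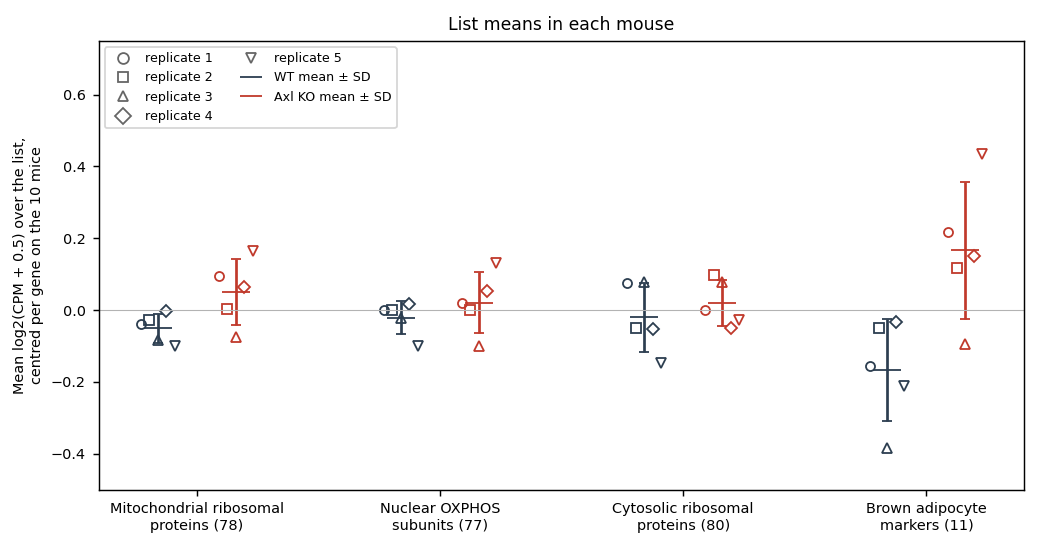
Mean over each gene list of log2(CPM + 0.5) after centring every gene on the 10 mice (y axis), for 4 lists (x axis), with a symbol per mouse and the mean ± SD of 5 mice. Axl KO replicate 5 is the highest mouse for the family, for OXPHOS subunits and for brown adipocyte markers, and Axl KO replicate 3 lies at -0.076 for the family, among the WT mice.

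The other proteins of the mitochondrial ribosome, which do not carry Mrpl or Mrps symbols, gave smaller values. Of Dap3, Ptcd3, Chchd1, Aurkaip1 and Gadd45gip1, 4 of 5 were above 0 and 0 had an unadjusted p under 0.05. Ptcd3, a pentatricopeptide protein of the small subunit, was at 186 ± 11 against 173 ± 5.11 CPM (log2 fold change 0.10, SE 0.055), and Dap3, a small subunit protein that binds GTP, at 77.9 ± 5.74 against 73.8 ± 2.00 CPM (0.08, SE 0.059). Aurkaip1 and Gadd45gip1 were at 0.05 each (SE 0.066 and 0.081), and Chchd1 at -0.02 (SE 0.090). The mitochondrial ribosomal RNAs mt-Rnr1 and mt-Rnr2 were not analysed here.

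Among genes that work with the ribosome, 0 passed the adjusted threshold in any list. Among 17 mitochondrial translation factors, 14 were above 0 (median 0.085), with unadjusted p under 0.05 for Slirp, which stabilizes mitochondrial messages (0.21, SE 0.074), the initiation factor Mtif3 (0.18, SE 0.066) and the recycling factor Mrrf (0.21, SE 0.091). Among 20 mitochondrial aminoacyl-tRNA synthetases, 15 were above 0 (median 0.068) and 1 of 20 (5%), Cars2, was higher at unadjusted p under 0.05 (0.33, SE 0.143), close to the 4.54% of all tested genes. Among 30 genes for ribosome assembly and rRNA modification, 21 were above 0 (median 0.061), with 0 higher and 1 lower at unadjusted p under 0.05. The latter was Spg7, a subunit of the protease that processes the Mrpl32 protein (-0.16, SE 0.067, adjusted p = 0.571).

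All 14 genes for transcription and maintenance of mitochondrial DNA were above 0, with a median log2 fold change of 0.092. Tefm, the elongation factor of the mitochondrial RNA polymerase, was at 18.5, 18.8, 17.5, 18.9 and 19.9 CPM in Axl KO mice and 16, 16.5, 13.3, 15.3 and 15.4 CPM in WT mice. The groups did not overlap (0.29, SE 0.078, adjusted p = 0.571). Of 77 nuclear genes for oxidative phosphorylation, 66 were above 0 (median 0.078) and 14 (18.2%) had an unadjusted p under 0.05 in the direction of Axl KO, led by Cox8b, Ndufb4 and Ndufa3. Of 80 cytosolic ribosomal proteins, 64 were above 0 (median 0.051) and 5 (6.25%) had an unadjusted p under 0.05. The 12 tested messages of the mitochondrial genome, the ones these ribosomes translate, had a median of 0.015, with 8 above 0. Several of them were poorly measured, so this median says little about their level. The counts per mouse were 1 to 46 for mt-Nd3 and 0 to 188 for mt-Atp8. The level ranged from 13.1 to 577 CPM for mt-Co3 (SE 0.821) and from 6.02 to 76.1 CPM for mt-Atp6 (SE 0.637). In contrast, mt-Co1 averaged 61500 CPM in Axl KO and 61300 CPM in WT mice (SE 0.067).

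Transcripts of the regulators usually named for this gene family showed no shared direction, with 5 of 9 above 0, a median of 0.023 and 0 with an unadjusted p under 0.05. The coactivator genes Ppargc1a and Ppargc1b were at 0.02 (SE 0.108) and 0.04 (SE 0.163), and Pprc1 at -0.06 (SE 0.121). Nrf1 was at 0.13 (SE 0.106), and Gabpa and Gabpb1, which encode the partners of the ETS factor GABP, at 0.03 (SE 0.073) and -0.23 (SE 0.127). Esrra was at 0.14 (SE 0.091), Yy1 at -0.04 (SE 0.080) and Myc at -0.13 (SE 0.258). The activity of these factors was not measured.

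**Figure D4:**
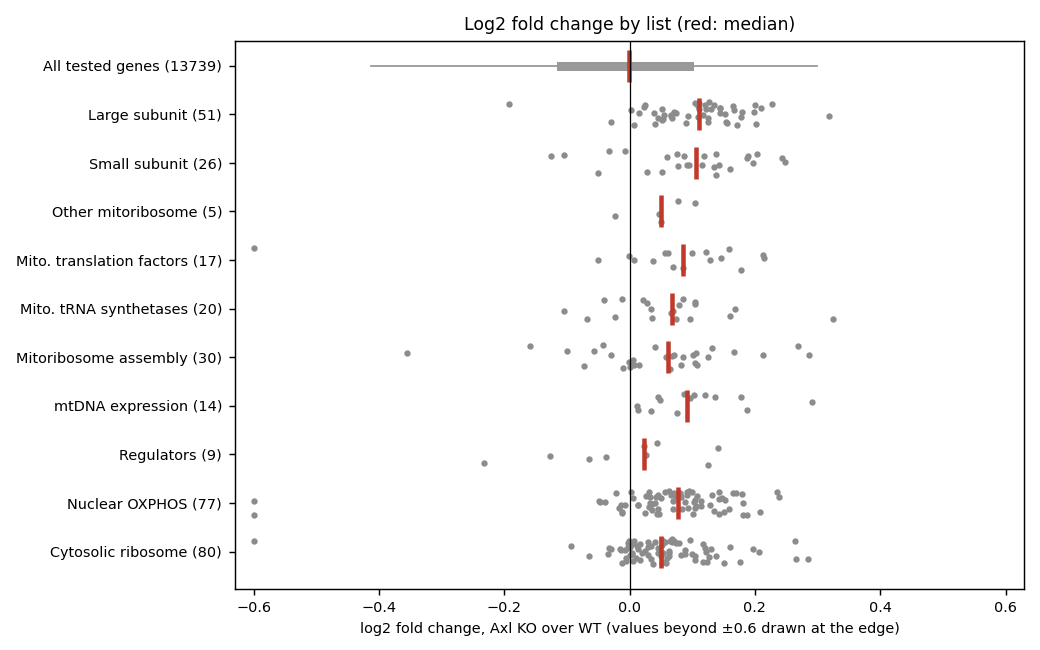
Log2 fold change, Axl KO over WT (x axis), of the genes in each list (points) with the list's median in red, and for all 13739 tested genes the central 50% (thick bar) and 90% (thin bar). The medians of both ribosomal subunits, 0.111 and 0.105, lie right of those of the other 8 lists drawn, which are for mitochondrial translation, mitochondrial DNA expression, their regulators, OXPHOS and the cytosolic ribosome and include no cell type markers.

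The level of the 78 transcripts spanned 6.18 to 135 CPM, with a median of 47.7. Per kilobase of the principal transcript the range was 5.74 to 197 CPM, 34.3-fold, although the products are assembled into the same particle, and 50 of 78 genes lay within 2-fold of the median of 33.8 CPM per kilobase. The highest were Mrpl42 (197 ± 21.0), Mrpl30 (140 ± 11.1), Mrpl34 (128 ± 12.9), Mrpl33 (109 ± 7.36) and Mrpl20 (99.3 ± 12.7 CPM per kilobase, SD over 10 mice), all of the large subunit. Mrpl30 and Mrpl34 differed by less than the larger of their SDs, as did Mrpl33 and Mrpl20, and Mrpl20 and Mrpl12 (98.3 ± 10.1). The lowest were Mrps26 (5.74 ± 0.586), Mrpl19 (6.73 ± 0.949), Mrps25 (6.85 ± 0.736), Mrpl17 (7.36 ± 0.692) and Mrpl32 (8.33 ± 0.806), whose principal transcripts are 3013 to 7300 bases long. Mrpl19 and Mrps25, and Mrps25 and Mrpl17, differed by less than the larger of their SDs, whereas Mrps26 and Mrpl19, and Mrpl17 and Mrpl32, differed by slightly more.

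The order depended on the length used. Where several principal transcripts of a gene ranked equally, the longest was taken, which gives the lowest level per kilobase. Shorter principal transcripts were not tried. With the length of all annotated exons of a gene, 1 of the 5 highest genes, Mrpl34, and 2 of the 5 lowest, Mrpl32 and Mrps26, stayed among the 5. Mrpl33 moved from 109 to 7.10 CPM per kilobase, because its annotated exons span 7326 bases and its principal transcript 478. The rank of a gene is therefore a property of the annotation as well as of the RNA, whereas comparisons between genotypes use the same length on both sides. The small subunit had a median of 30.7 and the large subunit of 39.5 CPM per kilobase.

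**Figure D5:**
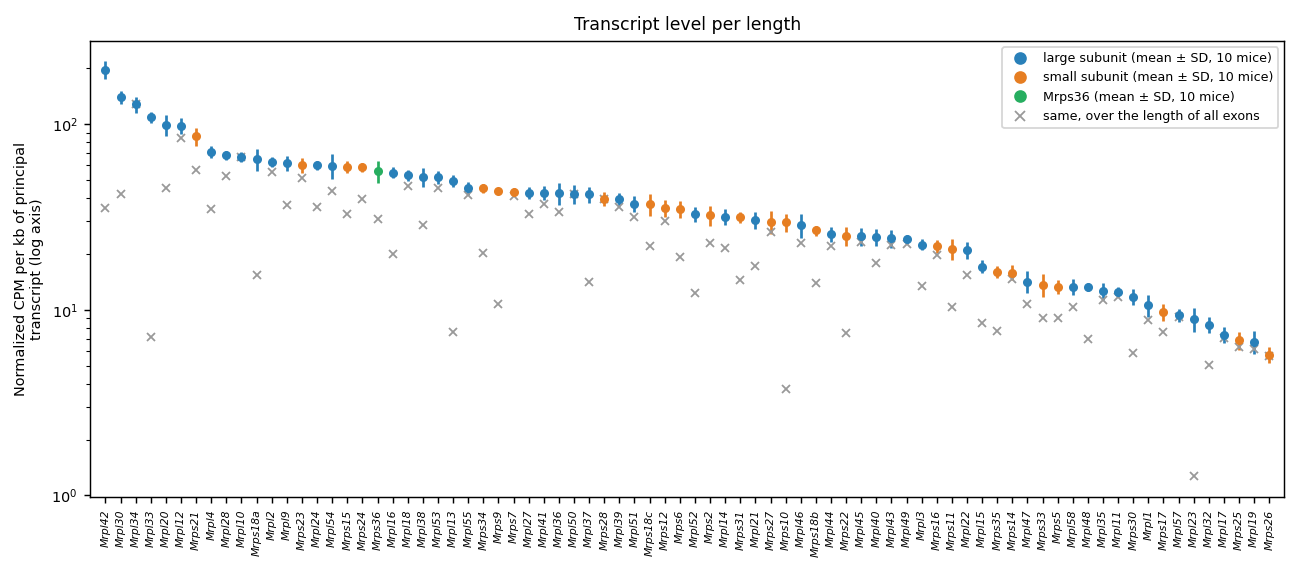
Normalized CPM per kilobase of the principal transcript (y axis, log scale) for the 78 genes in descending order (x axis), with the SD over 10 mice, coloured by subunit. Grey crosses give the same counts over the length of all annotated exons, which for Mrpl33 is 7.10 instead of 109.

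Between mice of the same genotype the family varied less than all tested genes, but slightly more than tested genes of similar level. The coefficient of variation had a median of 8.88% over the 78 genes, beside 13.0% over all tested genes and 8.26% over the 2192 tested genes whose level lay between the family's lower and upper quartiles by CPM. The most variable genes were Mrpl54 (14.7%), Mrps33 (14.7%), Mrpl23 (14.2%), Mrpl19 (12.7%) and Mrps18c (12.6%). Mrpl54 ranged from 28 to 47.0 CPM in Axl KO mice and from 29.1 to 38.1 CPM in WT mice.

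The genes are spread over 17 chromosomes, with 11 on chromosome 11, 8 on chromosome 17, 7 on chromosome 6 and 6 on chromosome 7. A protein-coding gene on the opposite strand starts within 1000 bases for 33 of the 78 (42.3%), compared with 16.3% of the tested protein-coding genes. Mrpl46 and Mrps11 are the only pair in which both are of the family. Of the 26 tested neighbours outside the family, 15 had a log2 fold change above 0, with a median of 0.05, where the median of the family genes beside them was 0.09. Mrps27 and its neighbour Ptcd2 were at 0.24 and 0.19, and Mrps18c and Helq at 0.19 and 0.25, whereas Mrpl50 was at 0.12 and its neighbour Zfp189 at -0.26.

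Sequence shared with other genes limits single values. Exons of 33 of the 78 genes overlap those of another gene. The largest shares covered by any single gene were in Mrpl53 (88.0% of its exonic bases, with Gm42688), Mrps25 (69.8%, with Nr2c2) and Mrps34 (63.4%, with Mapk8ip3). A further gene, Nme3, overlaps 37% of the exonic bases of Mrps34. In the 45 genes without such overlap, 41 were above 0 and the median log2 fold change was 0.110. Of these 45, 7 (15.6%) were higher in Axl KO at unadjusted p under 0.05, beside 4.54% of all tested genes. Of the 33 genes with an overlap, 8 (24.2%) were. Mrpl46, Mrpl3 and Mrpl10 were not among the 45. For 18 genes the principal transcript shares at least 200 bases at 95% identity or more with a gene elsewhere in the genome. The longest perfect match was in Mrpl23, with 540 bases, 78% of the transcript, identical to Mrpl23-ps1. Mrps36 matches 4 such copies. How the counting treated reads that match several places is not given, so levels of these 18 genes are uncertain.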

How the data were processed

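RNA from iBAT of 5 Axl KO and 5 WT mice was sequenced after HFD, with 1 library per mouse. The authors deposited raw counts per Ensembl gene for each mouse, without normalization or pooling. The paper's methods name Trim Galore and hisat2 on GRCm38 and rRNA-depleted RNA, whereas the submitters' processing notes list Trimmomatic 0.36 and STAR 2.6.1c and the labels polyadenylated RNA. The counting tool and strand setting are not given in the sources used here.

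Of 41249 identifiers, 41163 were matched to GENCODE M21 (GRCm38). Genes with a mean above 1 CPM (13739) were fitted in R 4.3.3 with edgeR 4.0.16 (TMM, quasi-likelihood test, no covariate), with Benjamini-Hochberg adjustment over all of them and a threshold of 0.05. Levels are TMM-normalized CPM. Two-sided exact permutation tests used 252 regroupings. The procedure was tested on simulated data with changes larger than any in the family, so that test does not cover changes as small as those measured here. Alternatives were DESeq2 1.42.0, RLE size factors, other filters, protein-coding genes alone, the replicate number as a block, a muscle covariate and each mouse left out. Lengths are of the APPRIS principal transcript, the longest where several rank equally. Sequence copies were found with BLAST 2.17.0, and promoters are RefSeq's.

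The genes and lists were chosen with earlier results of these data known. Genes named are Axl, the 12 members with the lowest p, those without overlap, the 5 highest and 5 lowest per length, the 5 most variable, those within 5 Mb of Axl, members with misleading symbols, Mrpl12, paralogs, non-Mrp ribosomal proteins, regulators, and up to 3 per other list. Total counts of 5431014 to 9580215 per mouse gave each gene of the family 28 counts or more in every mouse. Macrophage, endothelial and erythroid markers had median log2 fold changes of 0.018, -0.040 and 0.021, and lymphocyte markers lay below the filter. The 3 tested white fat markers did not share a direction. Nnmt was at 0.43 (SE 0.165), Retn at 0.49 (SE 0.310) and Lep at -0.37 (SE 0.337), with a median of 0.432. Replicate numbers of the labels are not stated to pair mice.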

Additional observations from a re-analysis of the deposited data

Results flagged for a closer look

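A mouse far from the other 4 of its genotype was found in 6 of 104 groups of 5 mice tested, where chance gives about 1 in 20. The ratio given is the gap to the nearest mouse over the whole range of the group. For Mrpl17, WT replicate 4 was highest at 58.1 CPM, with the next at 50.5 (ratio 0.750). For Mrpl47, WT replicate 4 was lowest at 40.1 CPM, with the next at 43.9 (0.731). For Axl, Axl KO replicate 4 was lowest at 0.437 CPM, with the next at 1.69 (0.801). Among regulators, Axl KO replicate 3 was lowest for Esrra at 114 CPM with the next at 150 (0.815) and highest for Gabpa at 173 CPM with the next at 153 (0.720). For Myc, WT replicate 2 was lowest at 2.64 CPM with the next at 5.05 (0.794). The family's mean level had no such mouse in either genotype.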

How the results depend on the processing

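Under 18 alternatives, the count of genes past the adjusted threshold stayed at 0 and the lowest adjusted p of any family gene was 0.125. The median log2 fold change was 0.08 to 0.14 and 65 to 72 genes were above 0 with each mouse left out. The medians were 0.07 to 0.13 for the small and 0.08 to 0.14 for the large subunit. The count of genes higher at unadjusted p under 0.05 was 6 to 31 with each mouse left out and 10 to 16 under the other alternatives, and the count lower was 0 to 1. Of 540 values of the 30 named genes, 535 kept their direction and their side of the threshold. The exceptions were Mrpl33, at -0.0033 with the muscle covariate and -0.03 to 0.05 with each mouse left out, and Mrps33, at -0.01 to 0.17. No pairing of the mice by number was seen, as 1 of 5 Axl KO mice correlated best with the WT mouse of its own number. With 5 mice per genotype this check cannot exclude a pairing. With the replicate number as a block, 15 genes were again higher at unadjusted p under 0.05 and the median was 0.11. By the length of all exons, 1 of the 5 highest and 2 of the 5 lowest genes per length stayed among them. The number of mice limits what can be detected, with a median standard error of 0.0791 for a single family gene beside a median log2 fold change of 0.113.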
